A study of Gallus gallus with 3 samples.

Results

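The levels of 7 microRNAs (miRNAs) that act on muscle differentiation or on its mesenchyme were examined in the legs of chicken embryos incubated for 14 days, namely gga-miR-26a, gga-miR-29a, gga-miR-29b, gga-miR-29c, gga-miR-101, gga-miR-214 and gga-miR-199. They were chosen by name, as probes without a star in the name, and all 7 were present among the 542 miRNAs of the array. Dwarf recessive White Rock embryos, which carry a deletion at the end of the coding part and in the 3′ untranslated region of the growth hormone receptor gene (GHR), were compared with normal recessive White Rock embryos. Each strain had been bred over many generations, so the deletion and other differences between the strains cannot be told apart. All embryos were female, and skin and bones were removed from the leg muscle according to the study's methods. RNA of 3 embryos made up a pool, and there were 3 pools per strain, each dwarf pool sharing a two-colour array with a normal pool. Dwarf RNA was labelled with Cy5 on arrays 1 and 3, but with Cy3 on array 2. Arrays were the replicates (n = 3), and their small number limits precision.

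A miRNA guides a silencing complex to messenger RNAs that pair with its seed, the stretch near its 5′ end. In mouse myoblasts, Ezh2, the enzyme of the Polycomb complex, keeps muscle genes silent, and miR-26a, miR-29 and miR-214 repress Polycomb proteins as the cells differentiate. miR-101 is known as a repressor of Ezh2 in human cells. miR-29 also holds down collagens and other matrix genes. A miR-199 gene neighbours that of miR-214, and both miRNAs are typical of mesenchyme and fibroblasts.

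The target sequences on the array show which of these miRNAs could share signal and which share a seed. They are printed 5′ to 3′ as deposited, with the seed, bases 2 to 8, in capitals.
miR-26a: uUCAAGUAauccaggauaggc
miR-101: gUACAGUAcugugauaacugaa
miR-29a: uAGCACCAuuugaaaucgguu
miR-29b: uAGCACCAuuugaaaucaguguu
miR-29c: uAGCACCAuuugaaaucggu
miR-214: aCAGCGGGaacagacaggcag
miR-199: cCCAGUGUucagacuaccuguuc

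The 3 miR-29 sequences had 1 seed in common and shared their first 17 bases. miR-29c was miR-29a without its last base, over 20 shared bases, so those probes cannot be told apart by sequence. miR-29b differed from miR-29a by G18A and U21G, counted from the 5′ end with the base of miR-29a first, and was 2 bases longer. The seed of miR-101 was shared with 1 other probe, miR-144. The same 7 bases opened miR-199*, where they start at base 1. No other probe had the seed of miR-26a, miR-214 or miR-199 at bases 2 to 8. The 7 bases of the miR-214 seed also occur in miR-1656 from base 5 and in miR-1803 from base 9. The longest stretch that miR-26a, miR-101 or miR-199 had in common with any other probe was 8, 8 and 7 bases. miR-214 shared its last 12 bases with miR-1623, whose gene neighbours NEO1 and HCN4. GC content was 42.9% in miR-26a, 36.4% in miR-101, 52.2% in miR-199 and 61.9% in miR-214. It was 34.8% to 40.0% in the miR-29 probes, against a median of 47.6% over the 127 tested miRNAs.

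In the GRCg7b gene table, MIR26A1 lies inside CTDSPL and MIR26A-2 inside CTDSP1, phosphatase genes of 1 family. MIR29A neighbours MIR29B1, and MIR29C neighbours MIR29B2, so the 29a and 29c forms each stand beside a copy of 29b. MIR199A2 and MIR214 both lie inside DNM3, whereas MIR199B1, another miR-199 gene, lies inside DNM1, and MIR199B lies inside CEP85L. MIR101-1 lies inside RCL1 and MIR101-2 inside LOC101749837. The table was used for names and neighbours only, and the array does not separate gene copies with identical mature sequence.

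Signal was taken as the mean intensity of the 6 spots of a miRNA minus the median empty spot of that channel, in scanner units. Over the 6 channels the median empty spot read 36.1 to 170.2. The study's detection limit, a signal over 32, was applied to the mean of the 6 pools, and 127 of the 542 miRNAs (23.4%) exceeded it and were tested. The miRNAs nearest the limit were miR-301b-3p at 32.4 inside it and miR-1662 at 30.4 outside it. Of the 7 miRNAs, 3 were tested, miR-26a, miR-199 and miR-101, and 4 were not, miR-214 and the 3 miR-29 probes. Probes bind their targets with different strength, so signals of different miRNAs were not set against each other. In RNA from whole muscle, fewer cells of a type and less RNA per cell cannot be told apart.

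The tissue was checked with marker miRNAs, by summed signal, which is not corrected for the dye, and by the normalised log2 ratio of dwarf over normal within an array. None of the markers named here passed the adjusted threshold of limma. Of 8 listed skeletal muscle names 7 were on the array, and 6 of them (all but miR-1b) had a signal over 32 in all 6 pools, as did 85 of all 542 miRNAs (15.7%). Their list summed to 14199 to 46692 in dwarf pools and 30235 to 69817 in normal pools, and the median ratio was -0.18. By array the list medians were -0.84, 0.42 and -0.25 (arrays 1, 2 and 3).

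Markers of other cell types also differed in size and direction between the pools. Of the epithelial list, 7 of 8 were on the array and 6 were tested, with summed signals of 28207 to 50577 in dwarf pools and 276 to 19574 in normal pools. Of the 7, 1 had a signal over 32 in all 6 pools, as did 15.7% of all 542 miRNAs. The filter on the mean can pass a miRNA through the pools where it is high. The median ratio of the 6 tested miRNAs was 1.56, beside -0.05 over all tested miRNAs. Of these, 5 were higher in dwarf pools on all 3 arrays, where 13.4% of all tested miRNAs were. The highest was miR-203, a skin miRNA, at 2.71, 5.62 and 1.82 on arrays 1, 2 and 3. Of the 6, 3 had an unadjusted limma p under 0.05, as did 14 of all 127 tested miRNAs (11%). The red cell miRNA miR-451 had ratios of 0.76, 2.25 and 0.85, higher in dwarf pools on each array, with a mean of 1.28 (SE 0.37, limma adjusted p 0.324). It and miR-144, whose mean signal was -11.3, summed to 1067 to 5421 in dwarf pools and 514 to 4148 in normal pools.

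Of 5 leukocyte miRNAs 2 were tested, miR-146a with a mean ratio of 1.23 and miR-223 with 0.01, and the list summed to 445 to 853 in dwarf pools and 53.5 to 1760 in normal pools. The endothelial miR-126 had ratios of 0.06, 0.16 and 0.17, with signals of 1884 to 5067 in dwarf pools and 2357 to 10144 in normal pools. Of the cartilage list the probe miR-140 had a signal of at most 13.9 in any pool. Other strands of these cartilage miRNAs, looked up after the values were seen, gave clear signal, with means over the 6 pools of 2833 for miR-140*, 1201 for miR-455-3p and 413 for miR-455-5p. The ratio of miR-455-3p was -1.25, -0.24 and -1.24 on arrays 1, 2 and 3, and that of miR-140* was -3.48, 2.13 and -2.05. The sign of miR-140* turned on array 2, where the dyes were swapped. Its log2 ratio of Cy5 over Cy3 was below 0 on all 3 arrays, with a mean of -2.55 (SE 0.36, limma adjusted p 0.394). The part of these cell types in the results below was not tested.

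miR-26a gave a strong signal in both strains. Its signal was 14714, 18683 and 17820 in dwarf pools (arrays 1, 2 and 3), against 15011, 14325 and 24395 in the normal pools. The strains overlapped, and the brightest pool was the normal pool of array 3. All 6 spots of miR-26a were brighter than the central 95% of empty spots in each pool, and the SD between spots was 5.08% to 11.8% of the signal.

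miR-199, the 5′ arm of a hairpin expressed in mesenchyme, was also over the limit in all 6 pools. Its signal was 203, 809 and 658 in dwarf pools (arrays 1, 2 and 3), against 938, 320.3 and 3589 in the normal pools. The strains overlapped, and on each array the pool labelled with Cy3 was the brighter one. The mean was 394 ± 236 in the Cy5 channel and 1778.5 ± 1569 in the Cy3 channel (SD, n = 3 each). The probe miR-199*, named for the opposite arm, and miR-199b, with 16 bases in common, were over the limit in all 6 pools as well. Whether miR-199b comes from the same hairpin was not tested.

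miR-101 was close to the limit. Its signal was 20.9, 60.2 and 35.7 in dwarf pools (arrays 1, 2 and 3), against 62.2, 6.38 and 193 in the normal pools. It exceeded 32 in 2 of 3 dwarf pools and 2 of 3 normal pools. By dye, it exceeded 32 in all 3 Cy3 channels, with a mean of 105 ± 76.1, and in 1 of 3 Cy5 channels, with a mean of 21.0 ± 14.6 (SD, n = 3 each). Of all 542 miRNAs, 124 to 142 exceeded 32 in a Cy3 channel and 90 to 117 in a Cy5 channel. The seed partner of miR-101, miR-144, was not tested.

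miR-214, which represses Ezh2 in mouse muscle cells, was below the limit on average, with a mean signal of 24.0. Its signal was 10.3, 13.0 and 8.33 in dwarf pools (arrays 1, 2 and 3), against 53.1, 3.21 and 56.0 in the normal pools. The normal pools of arrays 1 and 3, both labelled with Cy3, were over 32, and the normal pool of array 2 was the lowest of the 6. Every Cy3 value of miR-214 was above every Cy5 value, and the median tested miRNA was also brighter in Cy3 on each array. No dwarf pool exceeded the limit, so the dwarf level has only an upper bound, and the measured normal mean lay below that bound, so no fold is given.

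**Figure D1:**
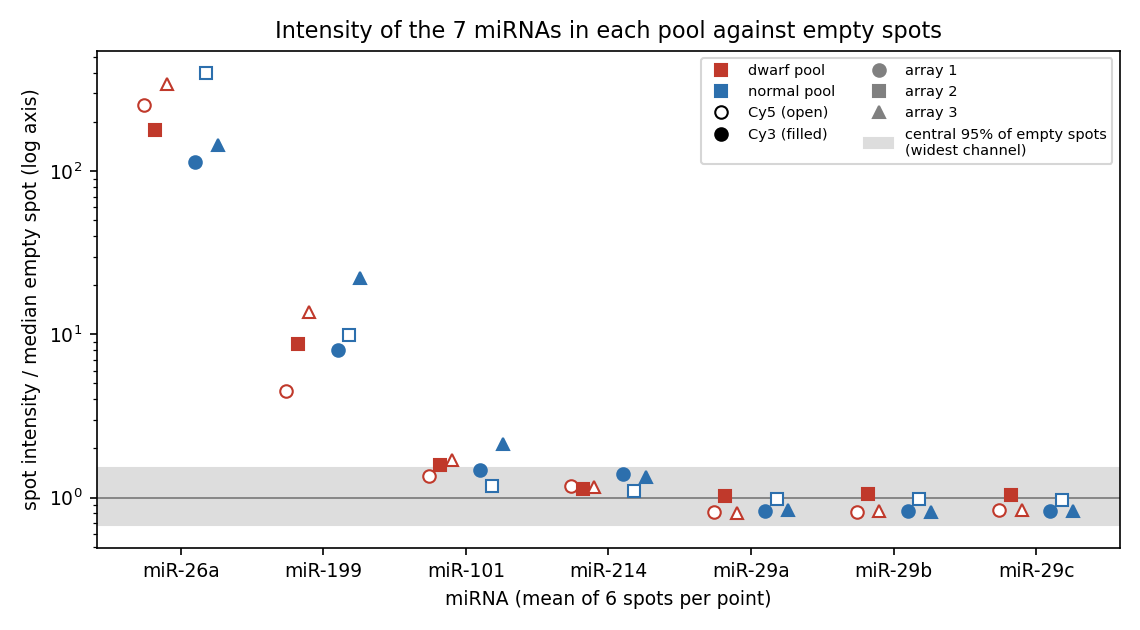
Mean spot intensity of each miRNA divided by the median empty spot of its channel, on a log axis, for 3 dwarf and 3 normal pools. Open symbols are Cy5, filled symbols are Cy3, marker shape gives the array, and the grey band holds the central 95% of empty spots in the channel where they spread most. miR-26a and miR-199 lie above the band in each pool, whereas the 3 miR-29 probes lie inside it in all 6.

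The 3 miR-29 probes were at background, and below the median empty spot in all pools but the dwarf pool of array 2. The signal of miR-29a was -10.7, 1.91 and -9.98 in dwarf pools (arrays 1, 2 and 3), against -22.8, -0.913 and -28.1 in the normal pools. That of miR-29b was -10.8, 5.28 and -9.22 in the dwarf pools, against -23.8, -0.772 and -31.9 in the normal pools. That of miR-29c was -9.06, 4.59 and -8.57 in the dwarf pools, against -23.3, -1.39 and -29.3 in the normal pools. No miR-29 probe was over 32 in any pool, as was so for 393 of all 542 miRNAs (72.5%).

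The background of the miR-29 spots was examined in more detail. Of 108 spot readings, 3 probes with 6 spots in 6 channels, 2 were brighter than 97.5% of the empty spots of their channel, where 2.5% of empty spots lie by construction. Of the 108, 16 were brighter than the median empty spot. Against the median of the 393 undetected miRNAs of the same channel, all 18 means of the 3 probes were lower. The dwarf pool of array 2 was the only one in which the 3 signals were above 0. Because both strains were at background for each probe, no strain ratio is reported for miR-29a, miR-29b or miR-29c, and a difference between them was not detectable. These values say that miR-29 was not detected by these probes in these pools, not that it is absent from the tissue.

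**Figure D2:**
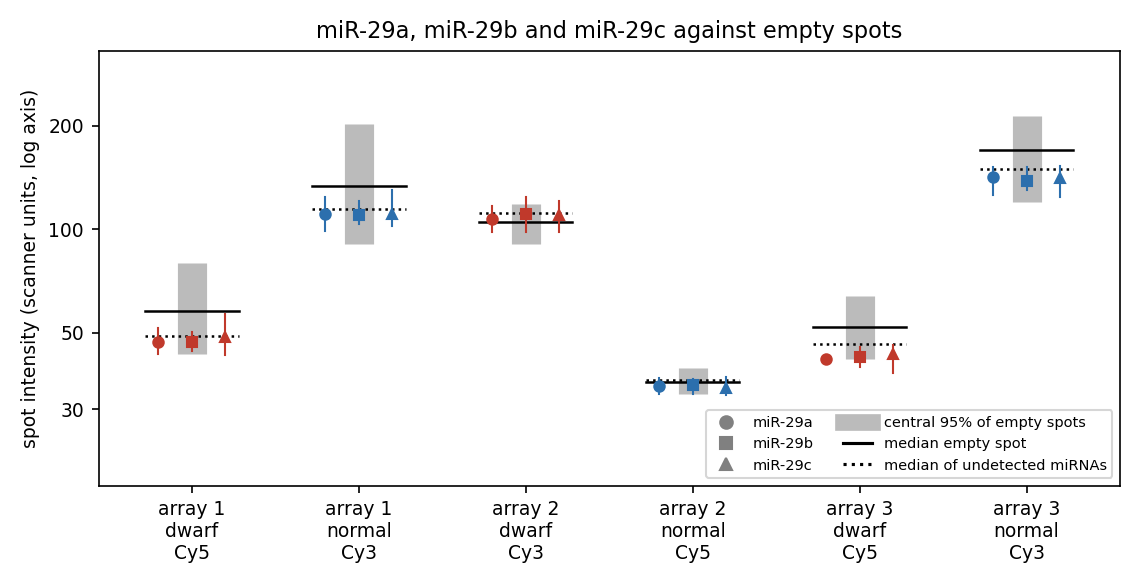
Spot intensity of miR-29a, miR-29b and miR-29c in the 6 channels on a log axis, with the dwarf pool left of the normal pool of each array. Symbols are means of 6 spots, thin lines run from the lowest to the highest spot, grey bars hold the central 95% of empty spots, and the solid and dotted lines are the median empty spot and the median of undetected miRNAs. All 18 means lie under the dotted line.

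The strains were compared on the log2 ratio of dwarf over normal within each array, after background correction and loess, a curve that removes the dependence of the ratio on intensity. limma called 0 of the 127 miRNAs (0%) at an adjusted p of 0.05, and 14 (11%) were under 0.05 without adjustment. The methods' t-test called 1 at its own threshold and 0 after adjustment. None of the 3 tested miRNAs was among these calls, adjusted or not. Ratios are relative to the other miRNAs of an array, whose median ratio was -0.05.

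miR-199 had the lowest ratio of the 3. On arrays 1, 2 and 3 its log2 ratio was -0.85, 0.07 and -0.84, with an SD between spots of 0.13, 0.17 and 0.18. All 6 spots were below 0 on arrays 1 and 3, and 3 of 6 on array 2. The mean was -0.54 (SE 0.25, 95% interval -1.24 to 0.16, limma adjusted p 0.464), so 0 lies within the interval. The normalised signal was 436, 958 and 619 in dwarf pools, against 784, 914 and 1106 in normal pools, and these overlapped, whereas the strains did not overlap for 12 of 127 miRNAs (9.45%). Its mean was 671 ± 265 in dwarf pools and 935 ± 162 in normal pools (SD, n = 3 each). Without array 2 the mean ratio was -0.84 (limma adjusted p 0.194), and without array 1 it was -0.39. On arrays 1 and 3 dwarf RNA carried Cy5, so without array 2 the strain and the dye cannot be told apart. In the deposited table of log2 ratios miR-199 was at -0.90, -0.29 and -0.59, below 0 on array 2 as well.

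The mean ratios of miR-199b and miR-199* were nearer to 0. The ratio of miR-199b was -0.36, -0.36 and 0.04 (arrays 1, 2 and 3), its mean being -0.23 (SE 0.15, limma adjusted p 0.669). That of miR-199* was -0.21, -0.44 and 0.12, with a mean of -0.18 (SE 0.17, limma adjusted p 0.824). The array on which the ratio was not below 0 was array 2 for miR-199 and array 3 for miR-199b and miR-199*. This contrast was not seen in the deposited ratios, which were below 0 on all 3 arrays for miR-199, for miR-199b (-0.57, -0.23 and -0.32) and for miR-199* (-0.44, -0.29 and -0.24). A difference between these probes was not tested.

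The ratio of miR-26a was 0.74, -0.30 and 0.47 on arrays 1, 2 and 3, with an SD between spots of 0.16, 0.11 and 0.16. All 6 spots had the sign of their array's mean on each array. The mean was 0.31 (SE 0.25, 95% interval -0.41 to 1.02, limma adjusted p 0.799). Its normalised signal was 21024, 16661 and 19724 in dwarf pools, against 12555, 20455 and 14228 in normal pools. The normal pool of array 2 was brighter than 2 of the 3 dwarf pools, and the strains overlapped. Without array 2, when strain and dye cannot be told apart, the mean was 0.61, and without array 1 it was 0.09. Without normalization it was -0.03, where the median of all tested miRNAs was -0.50. In the deposited table miR-26a was at 0.29, -0.03 and -0.001, with a mean of 0.09.

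The ratio of miR-101 was -0.0013, 0.26 and -0.21 on arrays 1, 2 and 3. Its mean was 0.01 (SE 0.15, 95% interval -0.41 to 0.44, limma adjusted p 0.983). The normalised signal was 117, 143 and 115 in dwarf pools, against 117, 119.9 and 134 in normal pools. These signals include the offset of 50 added to every spot, which pulls the ratio of a dim miRNA toward 0. The direction of miR-101 is not settled, since its mean was -0.23 with plain subtraction, -0.46 without normalization and -0.11 without array 2.

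**Figure D3:**
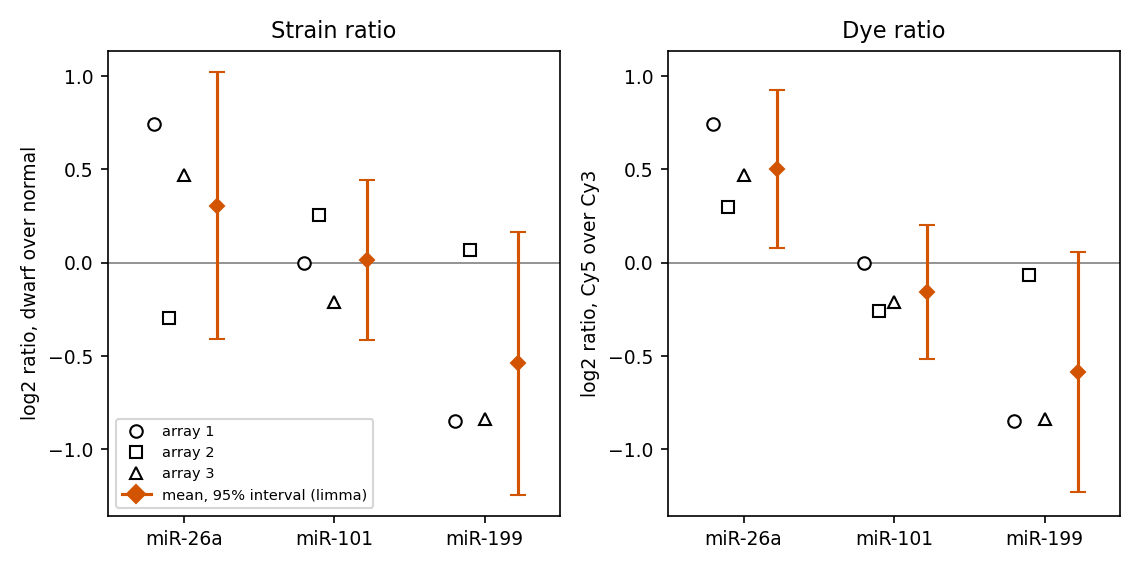
Log2 ratios of miR-26a, miR-101 and miR-199 after loess, dwarf over normal on the left and Cy5 over Cy3 on the right. Open symbols are the 3 arrays, and diamonds with bars are limma means with 95% intervals. The 3 strain intervals include 0, and on the right the 3 arrays of a miRNA lie on 1 side of 0. The values of miR-101 on array 1 (-0.0013) and miR-199 on array 2 (-0.07) are near 0.

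The sign of the ratio was compared with the strain and with the dye. One sign of the strain ratio on all 3 arrays was found for 41 of 127 miRNAs (32.3%), 24 lower (18.9%) and 17 higher (13.4%) in dwarf pools, and for 0 of the 3. One sign of the dye ratio was found for 39 of 127 (30.7%) and for all 3. Because the dye ratio is the strain ratio with array 2 turned, a single dye sign means mixed signs for the strain. The ratio of Cy5 over Cy3 was 0.74, 0.30 and 0.47 for miR-26a, with a mean of 0.50 (SE 0.15, limma adjusted p 0.460). For miR-199 it was -0.85, -0.07 and -0.84, with a mean of -0.58 (SE 0.22, limma adjusted p 0.611). For miR-101 it was -0.0013, -0.26 and -0.21, with a mean of -0.16 (SE 0.12, limma adjusted p 0.804). The sign is not settled for miR-101 on array 1 or miR-199 on array 2, where 3 of 6 spots had a strain ratio below 0. miR-26a was 1 of 12 miRNAs (9.45%) with an unadjusted p under 0.05 for the dye, and limma called 0 of 127 (0%) after adjustment. With 2 arrays in one dye orientation and 1 in the other, the dye does not cancel in the mean strain ratio. A dye coefficient in the fit gave strain ratios of 0.16 for miR-26a, 0.07 for miR-101 and -0.39 for miR-199, none past the threshold.

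The size of the loess correction was measured for each miRNA. Before loess the log2 ratio of miR-199 was -1.94, 1.22 and -2.35 on arrays 1, 2 and 3, so loess moved it by 1.09, -1.15 and 1.52. That of miR-101 was -0.86, 1.05 and -1.57, moved by 0.86, -0.79 and 1.36. That of miR-26a was -0.04, 0.39 and -0.46, moved by 0.78, -0.68 and 0.93. On each array the correction was larger than the ratio that remained, and for miR-26a it turned the sign on all 3 arrays. The sign of the correction followed the dye of the dwarf pool. This was not particular to the 3 miRNAs. Loess moved miR-1623 by 0.94, -0.98 and 1.29 and miR-199* by 0.86, -0.75 and 0.96 on arrays 1, 2 and 3. Without normalization limma called 108 of the 127 tested miRNAs for the dye.

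**Figure D4:**
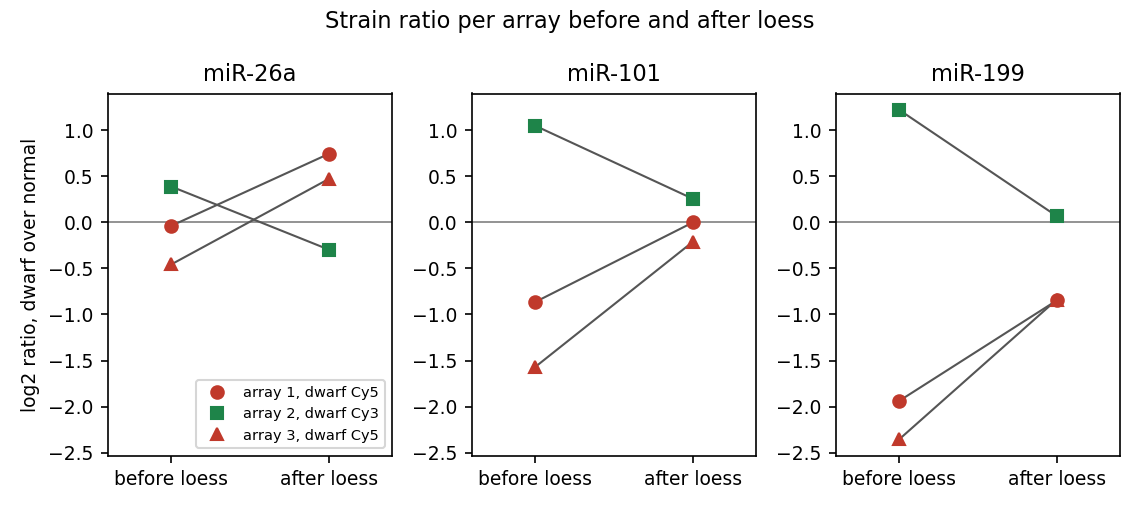
Log2 ratio of dwarf over normal for miR-26a, miR-101 and miR-199 on each array, before and after loess. Lines join the values of 1 array, and colour gives the dye of the dwarf pool. Arrays 1 and 3 move up and array 2 moves down for each miRNA, and the lines of miR-26a cross 0.

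The tested miRNAs most like each of the 3 were found by the root mean square difference of the normalised log2 signal over the 6 pools, each miRNA set to its own mean. They were chosen on the same values as the ratios below, so a likeness over the arrays follows from the choice. The closest to miR-199 were miR-455-5p, with a difference of 0.19, and miR-148a, with 0.22, against a median of 0.50 over all tested miRNAs. Their strain ratios were -0.84, 0.21 and -1.09 for miR-455-5p and -0.97, -0.17 and -0.54 for miR-148a on arrays 1, 2 and 3. All 3 miRNAs had their highest ratio on array 2, where dwarf RNA carried Cy3. miR-148a is known to promote myogenic differentiation in mouse, and miR-455 is known from cartilage.

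For miR-26a the closest were miR-1563, with a difference of 0.21, and miR-130b, with 0.22, against a median of 0.45. Both had their lowest ratio on array 2, at -0.03 and -0.13, like miR-26a. For miR-101 the closest were miR-18b, with a difference of 0.07, and miR-16c, with 0.11, against a median of 0.37. The differences among the 3 miRNAs themselves were 0.33 between miR-26a and miR-101, 0.38 between miR-101 and miR-199 and 0.64 between miR-26a and miR-199. The ratio of miR-26a minus that of miR-199 was 1.59, -0.36 and 1.31 on arrays 1, 2 and 3, so the order of these miRNAs turned on array 2. Pools of 1 array share a hybridisation, and these values are a description.

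**Figure D5:**
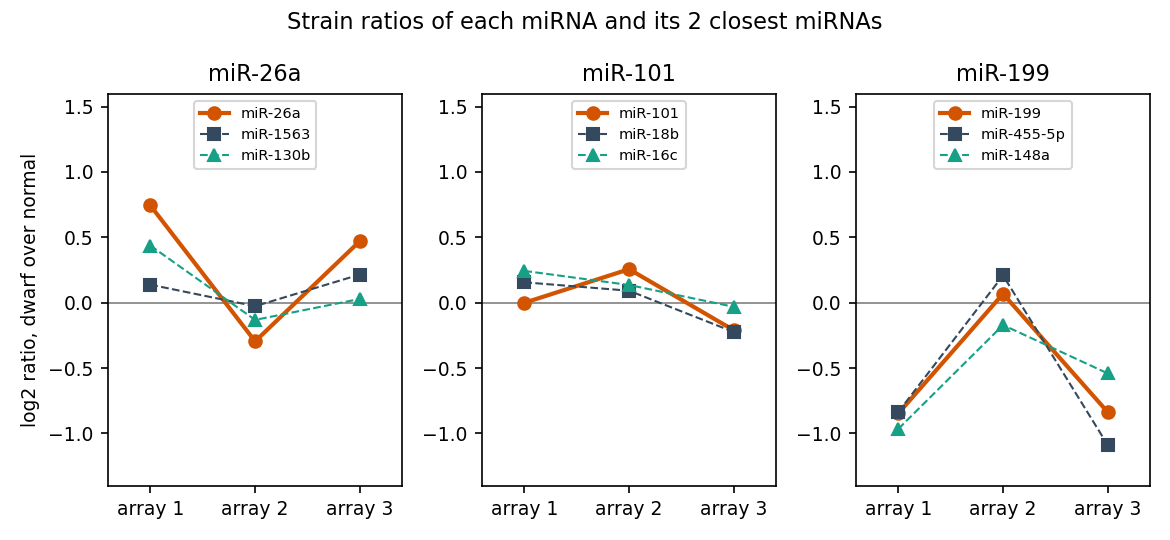
Log2 ratio of dwarf over normal on arrays 1, 2 and 3 for miR-26a, miR-101 and miR-199 (solid lines) and the 2 closest tested miRNAs of each (dashed lines). Array 2 holds the highest ratio of miR-199, miR-455-5p and miR-148a and the lowest of miR-26a, miR-1563 and miR-130b. The closest miRNAs were chosen on these same values, so the likeness follows from the choice.

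Other miRNAs described as regulators of myogenesis in vertebrates were read from a list drawn up with earlier results of these data known. Of 14 names 12 were on the array and 9 were tested. None passed the threshold (0%), 3 had a ratio above 0 and 6 below 0, and the median was -0.25 beside -0.05 over all tested miRNAs. Those 6 of the 9 were lower in dwarf pools on all 3 arrays, as were 24 of all 127 tested miRNAs (18.9%). Among them is miR-181b, which the study had reported as lower in dwarf embryos, so the count is a description. The 3 above 0 had mixed signs. The highest were miR-27b, a repressor of Pax3 in mouse, at 0.34 (SE 0.19) and miR-24 at 0.29 (SE 0.26), with limma adjusted p of 0.596 and 0.824. The lowest were miR-148a at -0.56 (SE 0.20) and miR-181a, which acts on Hox-A11 in mouse myoblasts, at -0.51 (SE 0.25), with limma adjusted p of 0.362 and 0.498. The list medians were -0.29, -0.13 and -0.26 on arrays 1, 2 and 3. Of the list, miR-31, miR-155 and miR-489 were not tested, with mean signals of 9.20, 2.98 and 18.3.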

How the data were processed

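Total RNA of 3 dwarf and 3 normal pools was labelled with Cy3 or Cy5 and hybridised to LC Sciences miRNA arrays, whose design follows miRBase. The deposited scanner values are linear intensities, the mean density of each spot, without background subtraction, and commas within numbers were stripped. A second deposited table gives log2 ratios of each miRNA on each array, which the authors normalised with LOWESS. Set against the scanner signals they followed dwarf over normal (Pearson r 0.900, 0.766 and 0.765 on arrays 1 to 3, across 127 miRNAs, which are not independent replicates), although the sample titles write normal over dwarf. Across all miRNAs these ratios had medians of 0.04, 0.03 and -0.13 (arrays 1 to 3), and how they were centred is not given in the sources used here.

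Each array held 3968 spots, 3252 of miRNAs and 424 empty. Background was corrected with normexp (offset 50) on the foreground intensities, as no local background was at hand for the spots. Loess (span 0.3, weight 0 for controls) was applied within each array, the 6 spots were averaged and the sign was turned on array 2. Normalised signals were taken after loess and Aquantile. limma 3.58.1 in R 4.3.3 (lmFit, eBayes) was used with Benjamini-Hochberg adjustment over 127 miRNAs, two-sided, with 2 residual and 1.82 prior degrees of freedom. The fit was tested on simulated data.

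The 7 miRNAs, the lists, the tests and the alternatives were chosen with earlier results of these data known. All 7 miRNAs are named. Closest miRNAs were sought for the 3 tested ones, 2 for each. Of the regulator list, those with an unadjusted p under 0.05 were to be named, otherwise the 2 highest and 2 lowest ratios. A planned exact sign-flip test between miR-29 members was not run, because the probes were at background. For the background, plain subtraction (floor 32) and an offset of 16 were tried as alternatives. For normalization, median centring, none at all and loess on tested miRNAs only were tried, and for spots and filter the median spot, no filter and a limit of 100. The fit was varied by adding a dye coefficient, dropping moderation, treating channels separately, using the methods' t-test or the deposited ratios, and leaving out each array. Gene neighbours were read from RefSeq annotation (GRCg7b).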

Additional observations from a re-analysis of the deposited data

How the results depend on the processing

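The count of miRNAs past the adjusted threshold for the strain stayed 0 in 14 of 17 alternatives. It was 2 with median centring, 3 with the dye coefficient, which has fewer degrees of freedom for the error by construction, and 1 when the methods' t-test was read at its own threshold. Separate channels with no replicate block gave 0, and leaving out each array gave 0 to 0. With array 2 left out, dwarf RNA always carried Cy5, so strain and dye cannot be told apart in that alternative. Without adjustment the count ran from 3 to 31, the 31 being out of all 542 miRNAs with no filter, against 14 of 127 in the values reported. The count for the dye was 108 without normalization and 0 in the other 10 alternatives, and loess removes that difference by construction. miR-26a, miR-101 and miR-199 passed in none. miR-199 stayed below 0 in 15 of 15 alternatives, from -1.02 to -0.39. miR-26a stayed above 0 in 14 of 15 and was -0.035 without normalization. miR-101 was -0.23 with plain subtraction, -0.46 without normalization and -0.11 without array 2, the range on leaving out each array being -0.11 to 0.13, and it was above 0 in the other 11 alternatives. Changing the filter, dropping moderation and treating channels separately cannot move a mean ratio, so agreement in direction there holds by construction. Without normalization the median of all tested miRNAs was -0.50, against -0.05 in the values reported. The causes were not tested. miR-101 was left out by the filter at 100. No ratio between miR-29 members was formed under any alternative. Against the empty spots on the same side (upper or lower) of the array, a setting chosen after seeing the data, the 7 miRNAs exceeded 32 in as many pools as before. Low signal over background limits miR-101, miR-214 and the miR-29 probes, and the Cy5 channel of array 2 had 90 miRNAs over 32, the fewest of the 6 channels.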

Other observations

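The target of miR-214 on this array shares its last 12 bases with that of miR-1623, which has the smallest p for the strain among the 127 tested miRNAs. The stretch is in capitals below.
miR-214: acagcgggaACAGACAGGCAG
miR-1623: gcaggcACAGACAGGCAGua

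The stretch covers bases 10 to 21 of miR-214 and bases 7 to 18 of the 20 of miR-1623. It lies outside the seed of miR-214 and begins within the seed of miR-1623. Of 146611 pairs of miRNA targets on the array, 55 (0.0375%) share 12 bases or more, and none but miR-1623 shares a run this long with miR-214. The pair was noticed after the values had been seen. The signal of miR-1623 was 1280.5, 2448 and 2030 in dwarf pools (arrays 1, 2 and 3), against 6449.5, 2390 and 10553 in the normal pools. The signal of miR-214, at 8.33 to 13.0 in dwarf pools and 3.21 to 56.0 in normal pools, was under 32 in 4 of 6 pools. The strain ratio of miR-1623 was -1.33, -0.94 and -1.05 on arrays 1, 2 and 3 (limma adjusted p 0.234). For miR-214, which was not tested, the offset of 50 leaves ratios of -0.15, -0.05 and -0.17, and the deposited table holds -0.20, -0.33 and -0.42. Whether the probes share signal was not tested. In the GRCg7b gene table MIR1623 lies inside no other gene, whereas MIR214 lies inside DNM3.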
